A study of Mus musculus with 4 samples.

Results

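The plasminogen activators of mouse embryonic fibroblasts, their receptor and a set of serpins that inhibit or resemble their inhibitors were followed through replicative senescence. The set holds 7 genes, Plau, Plat, Plaur, Serpine2, Serpinb2, Serpinf2 and Serpinf1, which were measured by every probe whose accession is a RefSeq transcript of one of them. These are 10 of 43553 probes and 7 of 17466 genes named on the array. The study compared 2 groups on 1-colour Agilent arrays, fibroblasts at passage 7, when replicative senescence began, and fibroblasts at passage 2, which were growing, with 2 arrays each. Both groups were primary cells kept in DMEM with serum and antibiotics, with no allele or agent named for either, and strain and embryonic age are not given in the sources used here. The labels describe 3 independent cultures but also a pooling of their RNA before hybridisation, so the arrays of a passage may be technical repeats and p-values then measure only the spread between arrays. RNA of a whole culture was read, so fewer cells of a type and less RNA per cell cannot be told apart.

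Plasmin is a broad serine protease that dissolves fibrin, degrades matrix proteins and releases or activates growth factors and metalloproteases. It is made from plasminogen by urokinase (Plau), which the receptor Plaur holds at the cell surface, and by tissue plasminogen activator (Plat). Serpins trap both the activators and plasmin in covalent complexes that endocytic receptors then clear. In human fibroblasts, urokinase and its receptor are counted among the proteins secreted or shed in senescence.

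Of the 7 genes, 1 rose at passage 7 (Serpinf2, the inhibitor of plasmin), 1 fell (Serpinb2, an inhibitor of the activators) and 5 did not pass the test. The test was limma, with p-values adjusted over all 13848 genes, and a gene counted as changed if it differed 2-fold or more with an adjusted p below 0.05. By that rule 28.6% of the members changed, beside 19.4% of all genes tested (9.99% rose and 9.42% fell), and nothing is read from so small a difference among 7 genes. Without the 2-fold minimum the same 2 members passed, beside 25.3% of all genes. In the fit of single probes 2 of the 10 passed, 1 higher and 1 lower, beside 17.2% of all 30870 probes (8.72% higher and 8.53% lower). Both changed genes were also the dimmest of the set, with spot signals only 1.61 to 3.9 times the local background. Serpinb2 was bright enough to be tested through passage 2 alone, the passage where it was higher. Plau had the largest difference, 2.99-fold higher at passage 7, but its arrays were too far apart for it to pass. The 2 passages did not overlap in 5 of the 7 genes, which also held for 68.5% of all genes tested. Passage 7 lay above in 2 members (40.7% of all genes) and below in 3 (27.8% of all genes). Levels below are log2 signals relative to the 75th percentile of the same array, and a level of one probe cannot be set against that of another. The median change of all genes on this scale was 0.20, so each change is also given relative to it.

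**Figure D1:**
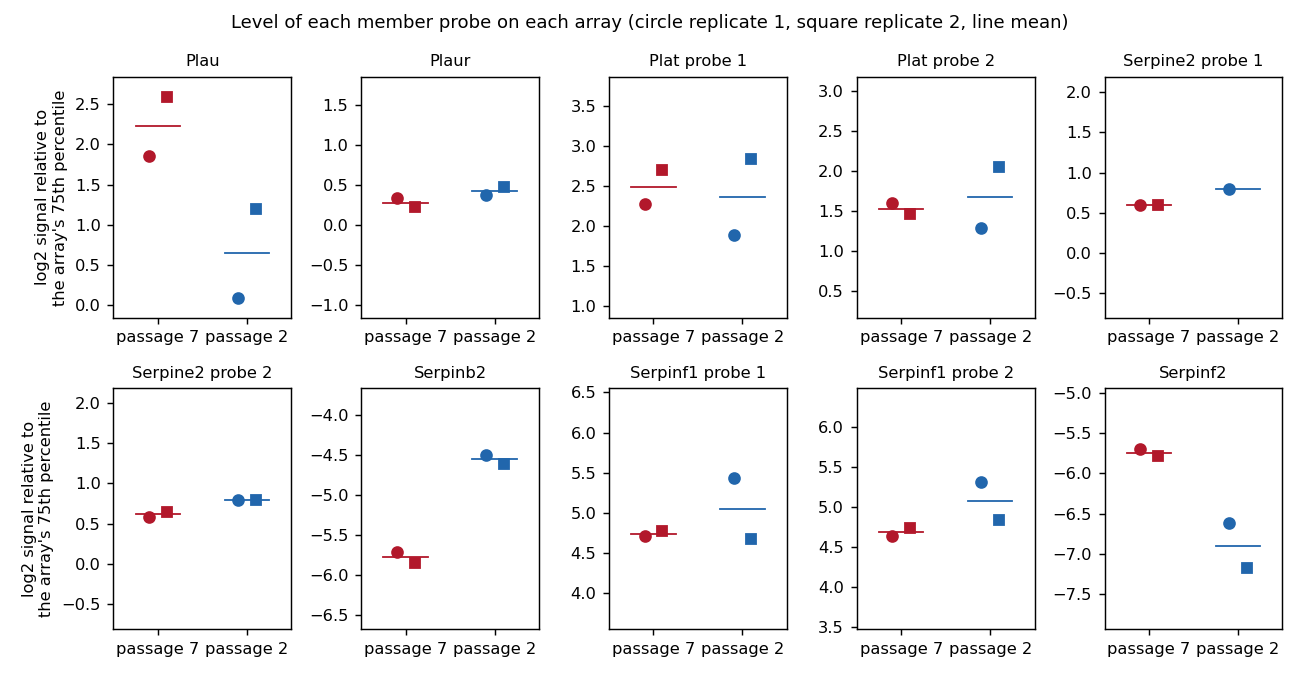
Level of each of the 10 probes on each array, as log2 signal relative to the array's 75th percentile, with passage 7 in red left of passage 2 in blue. Circles are replicate 1, squares replicate 2 and lines the mean. Every panel spans the same range of log2 units, and 1 spot of Serpine2 probe 1 was marked as an outlier and is missing. The passage 2 arrays lie 1.10 apart for Plau, while those of Serpinb2 lie 0.12 apart.

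Plau, the urokinase gene, is read by 1 probe, which had levels of 1.86 and 2.59 on the passage 7 arrays, against 0.09 and 1.20 on the passage 2 arrays. Its processed signals before scaling were 3510 and 2420 at passage 7, against 1090 and 3220 at passage 2. Both passage 7 arrays were higher after scaling, but the signals overlapped before it, and the passage 2 arrays lay far apart. Its log2 change was 1.58 ± 0.47 (SE; 95% interval 0.36 to 2.80; limma, adjusted p = 0.069), or 1.38 relative to all genes. The gap of 1.10 between its passage 2 arrays was larger than that of 94.8% of genes tested. Plau passed in the authors' value table (change 1.55, adjusted p = 0.023), with median scaling (1.41, adjusted p = 0.015), with a variance trend (1.58, adjusted p = 0.028) and with the replicate number as a block (1.58, adjusted p = 0.049). It was higher at passage 7 under all 17 alternatives, with changes of 1.03 to 2.13.

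Plat, the tissue plasminogen activator gene, has 2 probes. The brighter had levels of 2.27 and 2.70 at passage 7, against 1.88 and 2.83 at passage 2. The other had 1.60 and 1.46 at passage 7, against 1.29 and 2.05 at passage 2. At both probes the passage 7 arrays lay between the passage 2 arrays, with replicate 1 of passage 2 the lowest and replicate 2 the highest. The change of the gene was 0.13 ± 0.38 (95% interval -0.88 to 1.14; adjusted p = 0.82), and the second probe gave -0.14 ± 0.32. The sign turned with the scaling, to -0.10 with quantile normalisation and -0.04 with median scaling, and an interval this wide leaves a 2-fold change in the upward direction within reach. As with Plau, its passage 2 arrays were 0.96 apart, more than for 92.5% of genes.

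**Figure D2:**
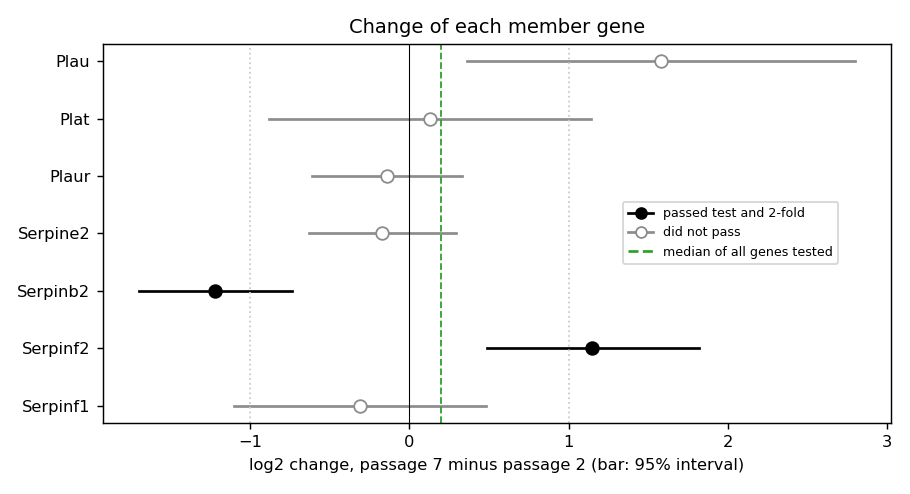
Log2 change of each gene at passage 7 relative to passage 2 with its 95% interval from limma. Filled points passed the test and the 2-fold minimum, the dashed line is the median of all genes tested (0.20), and dotted lines mark 2-fold. Serpinf2 (1.15) and Serpinb2 (-1.22) passed, and the interval of Plau runs from 0.36 to 2.80.

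The receptor was among the members with the closest arrays. Plaur, which anchors urokinase at the membrane through a lipid tail, had levels of 0.34 and 0.22 at passage 7, against 0.37 and 0.47 at passage 2. Both passage 7 arrays were lower and the passages did not overlap, but the gene did not pass, with a change of -0.14 ± 0.18 (95% interval -0.61 to 0.33; adjusted p = 0.60). Relative to all genes the change was -0.34. The interval excludes a 2-fold change in either direction on the scale used.

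Serpine2 encodes protease nexin-1, a secreted inhibitor of thrombin, urokinase and tissue plasminogen activator that binds heparin-like chains. Its brighter probe had levels of 0.58 and 0.65 at passage 7, against 0.79 and 0.79 at passage 2. The other probe had 0.60 and 0.59 at passage 7, against 0.79 on the 1 passage 2 array that was used. Both probes were thus slightly lower on every passage 7 array, and the passages did not overlap. The change was -0.17 ± 0.17 at the brighter probe (95% interval -0.63 to 0.29; adjusted p = 0.50) and -0.19 ± 0.26 at the other (adjusted p = 0.63 over all probes). The spot of the second probe on the passage 2 replicate 2 array was marked as an outlier and left out. Its signal was 1.62 times the local background, against 73.2 times on the other passage 2 array, and when it was kept that probe gave a change of 1.27 (adjusted p = 0.40).

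Serpinb2 encodes plasminogen activator inhibitor 2, a serpin that inhibits both activators and stays largely inside the cell that makes it. It had levels of -5.71 and -5.85 at passage 7, against -4.50 and -4.62 at passage 2. Before scaling, its processed signals were 18.4 and 6.99 at passage 7, against 45.2 and 57.2 at passage 2. Each passage 7 array was lower on both scales, and the arrays of a passage lay close together. The level averaged -5.78 ± 0.09 at passage 7 and -4.56 ± 0.08 at passage 2 (SD, n = 2 each), a fall of 2.33-fold (log2 change -1.22 ± 0.18, 95% interval -1.70 to -0.74; adjusted p = 0.015), or -1.42 relative to all genes. The passage 7 replicate 2 array was not well above background for this probe. A gene was tested if it was well above background on both arrays of a passage. Serpinb2 thus entered the test through passage 2 alone, where it was higher, and its call and p-value depend on that filter. The change is reported as measured. The call was lost without passage 7 replicate 1 (-1.29, adjusted p = 0.072) and without passage 7 replicate 2 (-1.15, adjusted p = 0.11), with the replicate number as a block (adjusted p = 0.057) and in the authors' value table, where the change was -0.79. With a normexp background correction that adds an offset of 50 the sign turned, to 1.33, or 0.20 when marked backgrounds were replaced.

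Serpinf2 encodes alpha-2-antiplasmin, the fast inhibitor of plasmin in blood, made mainly in liver. It had levels of -5.70 and -5.78 at passage 7, against -6.62 and -7.18 at passage 2. Both passage 7 arrays were higher on this scale. The processed signals before scaling were 18.5 and 7.32 at passage 7, against 10.4 and 9.70 at passage 2, and these overlapped. The lowest signal called well above background on these arrays was 6.88 and 6.30 at passage 7 and 7.22 and 6.64 at passage 2, so the probe stood near the limit throughout. After scaling these limits were -7.13 and -6.00 at passage 7, against -7.15 and -7.72 at passage 2. On passage 7 replicate 2, any spot counted as well above background thus lay above both passage 2 levels of Serpinf2. Its higher level on that array was therefore fixed by the limit. The mean was -5.74 ± 0.05 at passage 7 and -6.90 ± 0.40 at passage 2 (SD, n = 2 each), a rise of 2.22-fold (log2 change 1.15 ± 0.25, 95% interval 0.49 to 1.82; adjusted p = 0.036), or 0.95 relative to all genes. It kept its call under 6 of 17 alternatives, was 0.29 in the authors' value table and 0.98 with median scaling, and lost its call without passage 2 replicate 2 (0.87, adjusted p = 0.066), passage 7 replicate 1 (1.12, adjusted p = 0.13) or passage 7 replicate 2 (1.19, adjusted p = 0.14).

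**Figure D3:**
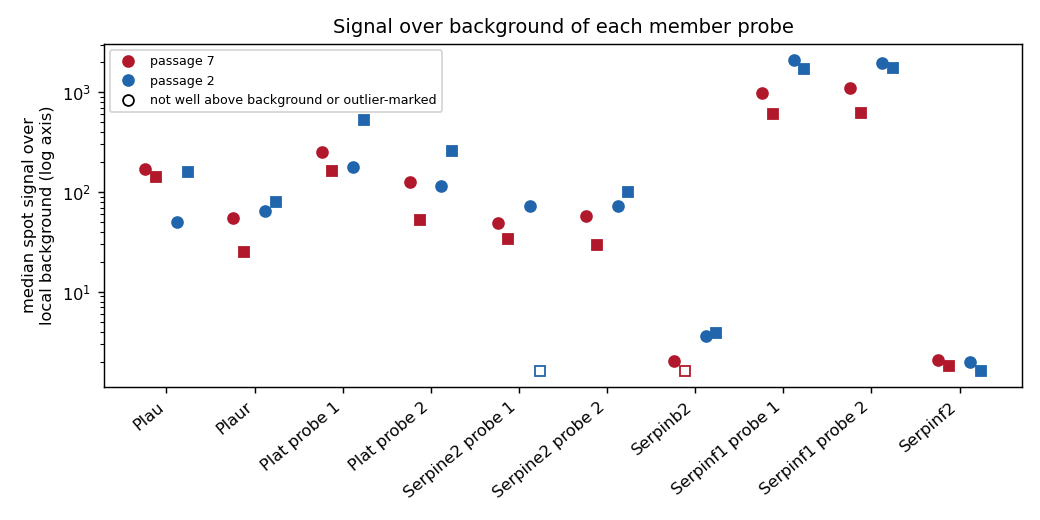
Median spot signal over local background of each probe on each array, on a log axis, with passage 7 in red left of passage 2 in blue (circle replicate 1, square replicate 2). Open symbols were not well above background or were marked as outliers. Serpinb2 and Serpinf2 lie between 1.61 and 3.9, and the Serpinf1 probes between 610 and 2120.

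The letters upstream of the genes that changed are shown beside those of the receptor, which did not pass, because the windows of Serpinb2 hold both a TATA box and an AP-1 motif. Each line gives the 120 bases before the transcription start, from RefSeq on GRCm38.p6, with motif matches in capitals. Serpinb2 lies at chr1:107511303-107511422 on the plus strand, Serpinf2 at chr11:75439502-75439621 on the minus strand and Plaur at chr7:24462363-24462482 on the plus strand.
Serpinb2: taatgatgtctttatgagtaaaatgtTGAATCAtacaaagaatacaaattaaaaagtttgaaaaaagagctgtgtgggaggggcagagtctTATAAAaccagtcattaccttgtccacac
Serpinf2: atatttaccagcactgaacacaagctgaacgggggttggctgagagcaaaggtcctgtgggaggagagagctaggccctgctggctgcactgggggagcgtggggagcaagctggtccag
Plaur: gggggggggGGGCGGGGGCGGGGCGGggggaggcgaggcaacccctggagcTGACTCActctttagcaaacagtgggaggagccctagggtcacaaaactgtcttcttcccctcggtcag
The motifs searched on both strands of windows of 300 bases were AP-1 (TGANTCA), the TATA box (TATAAA), the GC box (GGGCGG) and TEAD (CATTCC). RefSeq windows were matched for 5 of the 7 genes, with 2 starts for Serpinb2. From the start used for the line above, the Serpinb2 TATA box begins at position -29 and the AP-1 match at -94. From its other start, whose window is chr1:107511260-107511559, the same letters begin at -116 and -181, and the data do not tell the starts apart. In Plaur the AP-1 match starts at -69 beside 3 GC boxes at -111, -105 and -100, of which those at -105 and -100 overlap. Serpine2 held 6 GC boxes, and the windows of Serpinf1 and Serpinf2 held no match to these motifs. Of 32851 promoters in the table, 7.81% hold the AP-1 letters, 13.6% the TATA box, 35.7% the GC box and 14.7% the TEAD letters, and a match is a description of the letters alone.

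Serpinf1 encodes pigment epithelium-derived factor, a secreted serpin without inhibitory activity that limits vessel growth. It is the neighbour of Serpinf2 on chromosome 11. Its first probe had levels of 4.71 and 4.77 at passage 7, against 5.43 and 4.67 at passage 2, and its second 4.64 and 4.74 at passage 7, against 5.31 and 4.84 at passage 2. At both probes the passage 7 arrays were close together and replicate 1 of passage 2 was the highest, and only the second probe separated the passages. The change was -0.31 ± 0.30 (95% interval -1.10 to 0.48; adjusted p = 0.48), and -0.38 ± 0.25 at the second probe. In the authors' value table it was -0.87 (adjusted p = 0.026), under the 2-fold minimum, and it was negative under all 17 alternatives.

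The genes whose 4 array values lay nearest to a member after centring were found for all 7, as the smallest root mean square distance. For Serpinb2 these were Tubgcp2 and 6330403K07Rik, each at 0.024, for Serpinf2 Aga at 0.013 and Tmem134 at 0.026, and for Plau Lrriq3 at 0.096 and Pkia at 0.104. The nearest were Rwdd4a and Mtfr1 for Plaur (0.007 and 0.008), Hdhd5 and Cers4 for Plat (0.045 and 0.058), Fam83f and Slc30a7 for Serpine2 (0.008 and 0.011) and Dcakd and Cox11 for Serpinf1 (0.022 and 0.031). Plau had the most distant nearest genes of the 7. With 4 arrays many genes share such a pattern, and these are descriptions only.

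The rest of the pathway was described through 6 lists of 57 genes, of which 47 were bright enough to be tested. In these 9 genes rose and 6 fell, or 31.9% of those tested, beside 19.4% of all genes (9.99% rose and 9.42% fell), and the median change was 0.40, against 0.20 for all genes. Plasminogen itself (Plg) was not well above background on any array at either of its 2 probes. Of its 6 tested receptors and binding partners only Krt8, a cytoskeletal keratin that can bind plasminogen at the surface of epithelial cells, changed. It had levels of -3.64 and -3.32 at passage 7, against -1.34 and -1.81 at passage 2 (-1.90 ± 0.25, adjusted p = 0.013, and -2.47 at its other probe). Among the other 5, S100a10, which holds plasminogen at the membrane together with annexin A2, had a change of 0.77 ± 0.32 (adjusted p = 0.14) and Anxa2 one of -0.30 ± 0.28 (adjusted p = 0.45).

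The list of receptors that clear activator and inhibitor complexes held 7 genes, including Lrpap1, which is not itself a receptor. Of the 7 genes, 2 rose and 1 fell. Mrc2, a collagen uptake receptor that associates with the urokinase receptor, had levels of 5.63 and 5.59 at passage 7, against 4.13 and 4.45 at passage 2 (1.32 ± 0.20, adjusted p = 0.016), and its 2 other probes gave 1.29 and 1.36. With quantile normalisation its change was 0.76 (adjusted p = 0.098). Sorl1, a sorting receptor that binds urokinase and its receptor, rose by 1.23 ± 0.29 (adjusted p = 0.043). Vldlr, which takes up protease and serpin complexes, fell by 1.08 ± 0.17 (adjusted p = 0.018). Of 7 tested protease inhibitors outside the members, 2 rose and 1 fell. Spint2, a membrane Kunitz inhibitor of serine proteases, had levels of 1.98 and 2.35 at passage 7, against -0.75 and -0.49 at passage 2, a rise of 6.89-fold (2.78 ± 0.23, adjusted p = 0.0058), with 2.87 at its other probe. Serping1, the C1 inhibitor, rose by 1.13 ± 0.21 (adjusted p = 0.025), but its other probe gave 0.67. A2m, the trap protein alpha-2-macroglobulin, was 4.74-fold lower (-2.24 ± 0.23, adjusted p = 0.0082). Only 1 of its passage 7 arrays stood well above background, so A2m entered the test through passage 2 alone, where it was higher. Its call and p-value depend on that filter. With well above background required on all 4 arrays A2m was not tested, and 5 genes of all 6 lists fell. The change of A2m was -1.48 in the authors' value table and -0.40 in normexp with marked backgrounds replaced.

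Of 8 partners of the urokinase receptor only Egfr, the epidermal growth factor receptor, rose (1.10 ± 0.19, adjusted p = 0.022, and 0.93 with median scaling), while none fell. Itgb1 stayed just under the 2-fold minimum (1.00 ± 0.24, adjusted p = 0.046), and without that minimum 3 of the 8 rose. Of 15 proteins cleaved or activated by plasmin or its activators, 3 rose and 3 fell. Mst1, a kringle protein related to plasminogen that acts as a growth factor, had levels of -3.74 and -3.90 at passage 7, against -6.68 and -7.35 at passage 2, a rise of 9.16-fold (3.20 ± 0.28, adjusted p = 0.0065). Its passage 2 levels lay near the lowest that counted as well above background (-7.15 and -7.72), and its log2 change was 1.15 in the authors' value table and 1.47 with marked backgrounds replaced. Mmp3, stromelysin-1, rose by 1.33 ± 0.20 (adjusted p = 0.016) and Bdnf, a neurotrophin cut from its precursor by plasmin, by 1.08 ± 0.22 (adjusted p = 0.029). Hgf, a growth factor activated by cleavage, fell by 2.16 ± 0.22 (adjusted p = 0.0076), with a change of -1.39 in the authors' value table. The laminin chain gene Lamc1 fell by 1.37 ± 0.23 (adjusted p = 0.020) and the collagenase gene Mmp13 fell by 1.15 ± 0.21 (adjusted p = 0.023). With marked backgrounds replaced, none of the 6 falls passed in limma, with Krt8 at -1.01 (adjusted p = 0.11) and Hgf at -0.30 (adjusted p = 0.57). Bdnf, Mmp13, S100a10, Anxa2 and Itgb1 were named after their values were seen. Of 4 tested targets and receptors of Serpine2 and Serpinf1, Pnpla2, a lipase that binds the Serpinf1 protein, rose by 1.41 ± 0.20 (adjusted p = 0.014). Of the 15 changed genes, Krt8, Spint2, A2m, Mst1 and Hgf kept their calls when any 1 array was left out. Without passage 7 replicate 1 and without passage 7 replicate 2 the adjusted p-values were 0.075 and 0.085 for Mrc2, 0.14 and 0.11 for Sorl1, 0.10 and 0.14 for Vldlr, 0.13 and 0.099 for Serping1, 0.087 and 0.16 for Egfr, 0.080 and 0.073 for Mmp3, 0.098 and 0.17 for Bdnf, 0.052 and 0.11 for Lamc1, 0.073 and 0.16 for Mmp13, and 0.069 and 0.066 for Pnpla2. Without passage 2 replicate 2 they were 0.084 for Sorl1, 0.054 for Vldlr, 0.071 for Serping1, 0.052 for Egfr, 0.051 for Mmp3, 0.063 for Lamc1 and 0.071 for Mmp13, and Bdnf had 0.050 there and 0.056 without passage 2 replicate 1.

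**Figure D4:**
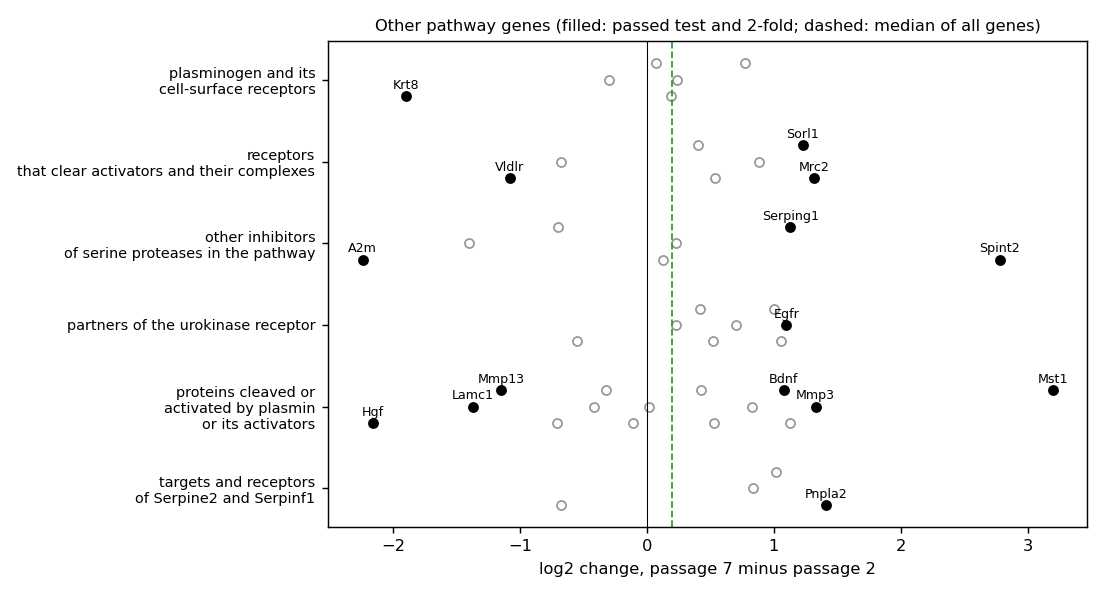
Log2 change at passage 7 relative to passage 2 of each tested gene of the 6 pathway lists, one list per row, with points spread vertically for legibility. Filled and named points passed the test and the 2-fold minimum, 9 to the right and 6 to the left, and the dashed line is the median of all genes (0.20).

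The cell type on the label was checked. Of 11 fibroblast markers 10 were matched to a probe, and all 10 were well above background on every array, while Lum and Pdgfra fell (-3.00 and -2.54). Macrophages can make Serpinb2 and Plaur, and their 8 matched markers summed to 1.18 and 1.45 times the 75th percentile at passage 7, against 2.69 and 2.43 times at passage 2. Of 7 tested none rose, Csf1r fell (-1.26 ± 0.25, adjusted p = 0.028) and Adgre1 fell (-2.15 ± 0.27, adjusted p = 0.012; 1 passage 7 array well above background). Adgre1 entered the test through passage 2 alone, where it was higher. Ptprc was not well above background on any array. The part of such cells in the fall of Serpinb2 was not tested. Hepatocytes make Serpinf2, and their 8 markers summed to 1.58 and 2.96 at passage 7, against 2.04 and 1.32 at passage 2. None of 6 tested changed in limma, with Afp and Apoa1 the brightest and Ahsg not well above background on any array, and their part in the rise of Serpinf2 was not tested. Of 8 tested endothelial markers 1 rose and none fell, of 6 tested keratinocyte markers 1 fell and none rose, and of 6 tested trophoblast markers 2 rose and none fell.

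**Figure D5:**
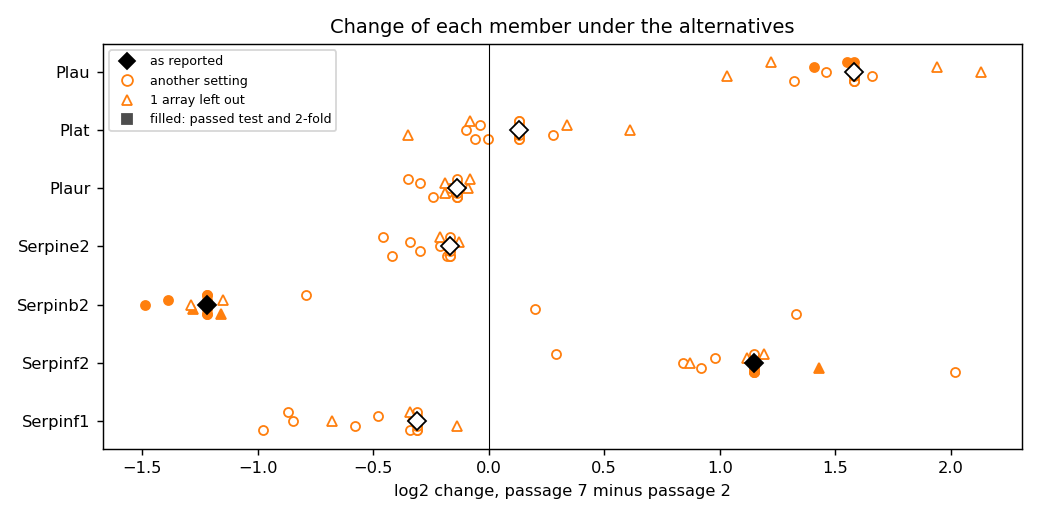
Log2 change of each gene as reported (diamonds), under other settings (circles) and with 1 array left out (triangles), passage 7 relative to passage 2. Filled symbols passed the test and the 2-fold minimum. Plau lies between 1.03 and 2.13, Serpinf2 between 0.29 and 2.02, and Serpinb2 lies below 0 in 14 of 16 alternatives.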

How the data were processed

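Agilent Feature Extraction 10.5.1.1 made the deposited spot files, per the file headers, with a background-subtracted processed intensity, median spot and background intensities and flags per spot. The authors' deposited value table holds log2 values, which follow log2 median intensity of the same array (r from 0.9986 to 1.0). Its scale is log2, its direction that of the signal, and its centring and background treatment are unknown (column medians 6.24 and 6.14 at passage 7, 6.30 and 6.30 at passage 2). The submitters' processing notes name limma.

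Here, the log2 processed signal was scaled to the 75th percentile of its array (964 and 402 at passage 7, 1024 and 1404 at passage 2). Outlier-marked spots were left out (14 to 61 per array), and repeated spots averaged. The share of spots well above background was 65.8% to 72.7%, and the number of arrays limits precision. A gene's probe with the highest mean stood for it. Genes and probes well above background on both arrays of a passage (13848 and 30870) entered limma 3.58.1 (R 4.3.3; lmFit, eBayes, no covariate, two-sided, Benjamini-Hochberg). The procedure was tested on simulated data. Probes were named by accession through RefSeq for GRCm38.p6. All arrays lay on 1 slide, each at its own position, and the effects of position and passage cannot be told apart.

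Members and lists were chosen with earlier results of these data known. Named were all members, up to 2 rises and 2 falls per list, the 2 nearest genes per member, and of a marker list the brightest and undetected genes. Plg and changed markers were named after their values were seen. Replicate numbers share no stated origin. The normexp correction used median spot intensities.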

Additional observations from a re-analysis of the deposited data

How the results depend on the processing

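The 7 genes, their probes and the pathway lists were refitted under other background corrections, scalings, filters, variance models, a replicate block and with each array left out. The counts of members that rose and fell were 0 and 0 with either normexp correction and without either passage 7 array, and over the arrays left out each ranged from 0 to 1. The count of rises was also 0 with quantile normalisation and with no filter on dim probes. With median scaling, the authors' value table, the variance trend and the replicate block it stayed at 1, but the gene was Plau and not Serpinf2. The count of falls was 0 in the authors' value table, with the replicate block and with well above background required on all 4 arrays, which leaves Serpinb2 untested. In the fit of probes 1 member probe rose and 1 fell. The rises were 0 with either normexp correction, quantile normalisation, no filter, robust eBayes and the replicate block, the falls 0 with either normexp correction, the authors' table, no filter, the filter on all 4 arrays, the variance trend and the replicate block, and without 1 array the rises ranged from 0 to 1 and the falls were 0.

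The change of Serpinf2 was 2.02 with normexp and 0.92 with marked backgrounds replaced (adjusted p = 0.56 and 0.17), 0.84 with quantile normalisation, 0.98 with median scaling, 0.29 in the authors' table and 1.15 with no filter, the variance trend or the replicate block (adjusted p = 0.077, 0.095 and 0.074), and from 0.87 to 1.43 with 1 array left out. That of Serpinb2 was 1.33 and 0.20 with the normexp corrections, -0.79 in the authors' table and -1.22 with the replicate block (adjusted p = 0.057), and from -1.29 to -1.15 with 1 array left out. Plau passed in 4 settings, with 1.41, 1.55, 1.58 and 1.58, and ranged from 1.03 to 2.13 with 1 array left out. Plat turned negative at -0.06 with normexp, -0.10 with quantile normalisation, -0.04 with median scaling, -0.0042 with the mean of its probes, -0.35 without passage 2 replicate 1 and -0.08 without passage 7 replicate 2, and ranged from -0.35 to 0.61 with 1 array left out. Its second probe ranged from -0.51 to 0.24, positive without passage 2 replicate 2. Serpine2 probe 1 was 1.27 with its outlier-marked spot kept, a setting chosen after seeing the data, and Serpinf1 probe 1 ranged from -0.68 to 0.07, positive without passage 2 replicate 1. Plaur and Serpine2 kept their sign and did not pass under any of the 17 alternatives. A2m and Hgf were 0.75 and 0.79 with normexp. The cause of these turns was not tested.

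Of all genes, 2689 were called, against 0 with normexp (limma; 662 genes at an unadjusted p under 0.05), 1233 with marked backgrounds replaced, 1771 with no filter and 1173 with the replicate block, and 1144 to 3326 with 1 array left out. Of the called genes 51.5% rose, against 36.2% in the authors' table (median change of all genes -0.06), 41.2% after median scaling (0.03) and 42.3% after quantile normalisation (0.02). In the pathway lists 9 rose and 6 fell, against 0 and 0 with normexp, 2 and 2 with the replicate block, 5 rises with no filter and 0 falls with marked backgrounds replaced, and 3 to 13 rises and 3 to 7 falls with 1 array left out. Same-numbered arrays did not deviate together (r = -0.17 across 13812 genes). With the numbers crossed, also chosen after seeing the data, 3066 genes were called, with 1 member rising and 1 falling. A fit with 1 array in a passage takes the spread of the other passage for both. The dim signal of Serpinb2 and Serpinf2 limits what their values can show.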

Other observations

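The array reads 53 genes named as serpins, of which 30 were tested, and 10 of these rose and 1 fell at passage 7, beside 9.99% and 9.42% of all genes tested. Among these rises, Serpinb7, Serpinb9e and Serpinb9f were not well above background on either passage 2 array and entered the test through passage 7 alone. With well above background required on all 4 arrays, 26 serpins were tested, of which 7 rose and 0 fell. In that setting 1355 of all 12811 genes rose. The count of serpin rises moved with the processing. It was 2 in the authors' value table, where none fell, 2 with marked backgrounds replaced, 0 with normexp, 5 with the replicate block or no filter, and 4 to 12 with 1 array left out, settings that were applied to the serpins after seeing the data. The gene that fell was Serpinb2, which entered the test through passage 2 alone. It lies in a cluster of Serpinb genes on chromosome 1, of which 12 were read, 5 tested and 6 not well above background on any array. Serpinb7 is its direct neighbour and a serpin of cultured mesangial cells and skin in human. It had levels of -5.81 and -5.35 at passage 7, against -9.26 and -8.86 at passage 2, where neither array was well above background. With the lowest levels that counted as well above background on the passage 2 arrays (-7.15 and -7.72) in their place, it was 3.61-fold higher at passage 7. A spot above such a level can still go uncounted, so 3.61 is no firm lower bound. Serpinb7 entered the test through passage 7 alone, and its p-value is not given. The other neighbour, Serpinb10, had levels of -3.12 and -2.14 at passage 7, against -3.22 and -3.48 at passage 2, and did not pass (0.72 ± 0.37, adjusted p = 0.21). The serpins named here were chosen after their values were seen, probes of close relatives may not separate them, and the difference between Serpinb2 and its neighbours was not tested.

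The arrays of passage 2 stood apart at the activators. Plau and both probes of Plat were higher on replicate 2 by 1.10, 0.96 and 0.75, while both probes of Serpinf1 were lower there by 0.75 and 0.47 and Plaur differed by 0.10. Over all genes the replicate arrays had a robust SD of 0.19 at passage 7 and 0.33 at passage 2.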
